A study of Mus musculus with 5 samples.

Results

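The genes described here are the tachykinin and neurotensin systems of the mouse central amygdala (CeA): the peptide precursor genes Tac1, Tac2 and Nts and the receptor genes Tacr1, Tacr3, Ntsr1 and Ntsr2. They were chosen by name, and all 7 were found among the 22532 genes counted in single-nucleus RNA sequencing of dissected CeA. The data comprised 5 libraries, each from the pooled CeA of 1 male and 1 female mouse, so that no library is a single animal. Fed 1 and fed 2 came from wild-type C57BL/6NRj mice of 8 weeks with free access to food. Fed 3 came from Htr2a-Cre mice of 12 weeks, which carry Cre under control of the Htr2a gene on a bacterial artificial chromosome and had received the virus AAV-DIO-mCherry, and thus differed from the others in genotype, virus and age. Fasted 1 and fasted 2 came from wild-type mice of 8 weeks that had been without food for 20 and 21 hours by their labels. The design text gives 20 hours for both. Nuclei were compared between cell classes, and fed libraries with fasted ones.

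Tachykinins are short neuropeptides that share a C-terminal core and act on receptors coupled to the G protein Gq. Tac1 encodes the precursor of substance P, the preferred ligand of the receptor of Tacr1, and of neurokinin A, whereas Tac2 encodes neurokinin B, which prefers the receptor of Tacr3. Nts encodes neurotensin and the related neuromedin N. Ntsr1 encodes the high-affinity neurotensin receptor of neurons, and Ntsr2 a low-affinity receptor known from astrocytes. In the lateral part of the CeA (CeL), neurons with Nts and Tac2 are an established population with appetitive functions, and Tac2 is also known for its part in fear memory.

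The coding sequence of each peptide core is given here in GRCm39, 5′ to 3′ on the coding strand. The exons are those of the GENCODE gene models. Capitals mark the 5 codons of the shared tachykinin core and the 4 codons of the core shared by neuromedin N and neurotensin. Substance P lies in exon 2 of Tac1 (chr6:7556732-7556773), and neurokinin A is joined across exons 3 and 4 (chr6:7557743-7559139, intron not shown). Neurokinin B is joined across exons 4 and 5 of Tac2 (chr10:127564345-127565023, intron not shown). Both cores of Nts lie in exon 4 on the minus strand, neuromedin N at chr10:102318255-102318299 and neurotensin directly downstream at chr10:102318210-102318254.
Tac1, substance P: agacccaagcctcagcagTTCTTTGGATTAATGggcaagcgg
Tac1, neurokinin A: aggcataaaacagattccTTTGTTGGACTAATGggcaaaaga
Tac2, neurokinin B: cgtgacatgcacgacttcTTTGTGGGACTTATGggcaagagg
Nts, neuromedin N: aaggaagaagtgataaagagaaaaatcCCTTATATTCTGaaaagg
Nts, neurotensin: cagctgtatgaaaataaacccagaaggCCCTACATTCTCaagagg
The core of neurokinin B shared 13 of 15 bases with that of neurokinin A and 10 of 15 with that of substance P. Both Tac1 cores shared 12 of 15 bases, and both Nts cores 9 of 12. In the tachykinins the capitals are followed by a glycine codon and a pair of basic codons. In Nts a pair of basic codons follows. These are the usual signals for amidation and cleavage, and the search for the cores required them. The search also fixed most or all residues of each core, so the shared bases follow in part from it.

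Nuclei with 500 to 8000 genes and under 0.8% mitochondrial UMIs (unique molecular identifiers, 1 per captured RNA molecule) were kept, 7161 in all and 1130 to 1734 per library. Of these, 5667 had a Gad1 or Gad2 UMI, fewer than 2 UMIs of Slc17a7 and Slc17a6 and no glial signature, and are called inhibitory. Classes were set by raw UMIs of marker genes, none of which is a member, and are named by these genes. The Dnah5 class needed both Dnah5 and Vipr2, which were taken to mark the Nts and Tac2 population of the CeL, and held 118 nuclei. The other classes held 400 (Prkcd), 328 (Calcrl), 251 (Sst), 50 (Vdr), 169 (Dlk1), 262 (Foxp2), 700 (Rarb), 204 (Pde1c) and 188 nuclei (interneurons by Nkx2-1, Lhx6 and Nxph1). A further 2389 inhibitory nuclei passed no gate and are called other inhibitory. The Vdr class had only 2 nuclei in its smallest library and was described but not tested. Of the check markers, which set no gate, 2 of 2 were highest in the Dnah5 class, 2 of 3 in the Prkcd class, 3 of 3 in the Foxp2 class, 4 of 4 in astrocytes and 3 of 4 in interneurons. This was so for 0 of 4 in the Calcrl class, 0 of 4 in the Dlk1 class, 1 of 5 in the Rarb class, 1 of 3 in the Pde1c class and 4 of 10 in the Sst class, so these names stand for a gate gene and for no cell type. Glia and excitatory nuclei were among the classes ranked. In the Calcrl class, Cdh9 was exceeded only in excitatory nuclei and Prkd1 only in astrocytes. Excitatory nuclei had 2 of their 4 check markers highest.

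The kept nuclei had a median of 6608 UMIs in fasted 1, 8326 in fed 1, 13814 in fed 3, 14886 in fed 2 and 16367 in fasted 2, so depth varied within both feeding states. Levels are given as CPM, the UMIs of a gene scaled to a common total of all UMIs of the class in that library, as mean ± SD over 5 libraries unless stated. Genes were not compared with each other in level, since intronic reads were counted and the gene spans run from 6.86 kb (Ntsr2) and 7.29 kb (Tac2) to 157.8 kb (Tacr1). The libraries shared 0 or 1 cell barcode per pair. The class test was the quasi-likelihood test of edgeR on UMIs summed by class and library, with the library as a block, for each class against the mean of the other 9 inhibitory classes. Adjusted p-values are those of Benjamini and Hochberg over all genes tested. Each library pools mice, so p-values measure the spread between pooled libraries.

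Tac2 was concentrated in the Dnah5 class. Its level there was 150.8, 253.5 and 128.5 CPM in fed 1, 2 and 3 and 239.4 and 211.5 CPM in fasted 1 and 2, a mean of 196.7 ± 54.8 (n = 5). The Sst class followed with 25.8 ± 14.1 CPM and other inhibitory nuclei with 19.3 ± 5.03 CPM. All 5 libraries had more Tac2 in the Dnah5 class than any library had in the Sst class, whereas the ranges of the Sst class and of other inhibitory nuclei overlapped. Against the mean of the other classes, Tac2 was 35.6-fold higher in the Dnah5 class (log2 fold 5.15, SE 0.21, edgeR adjusted p = 2.4e-27). Dnah5 and Vipr2 were taken as marks of the Nts and Tac2 population, with earlier results of these data known. A high level there thus followed in part from the gate, and this fold and p are no independent test. Tac2 was also higher in the Sst class (log2 fold 1.72, SE 0.31, edgeR adjusted p = 2.2e-05) and in other inhibitory nuclei (log2 fold 1.41, SE 0.20, edgeR adjusted p = 4.8e-08). It was lower in the Calcrl class (log2 fold -1.56), the Rarb class (-1.64) and interneurons (-2.24), where its mean was 1.73 to 2.31 CPM. In the Prkcd, Dlk1, Foxp2 and Pde1c classes it did not pass the test. For every other class the comparison mean includes the Dnah5 class, so its high Tac2 level lowered their log2 folds.

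In the Dnah5 class 75.4% of the 118 nuclei had a Tac2 UMI (95% Wilson interval 66.9 to 82.3%, counting error only) at a median depth of 13489 UMIs. For comparison, excitatory nuclei, at a median depth of 20301 UMIs, had one in 5.81% (2.51 to 12.9%) of 86 nuclei, and oligodendrocytes, at 3075 UMIs, in 1 of 183. After each nucleus was thinned to 4000 UMIs, which left out 1 of the 118 nuclei, the share in the Dnah5 class was 49.9 ± 6.19% over the 5 libraries, against means of 0 to 4.0% in the 4 glial classes and excitatory nuclei.

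**Figure D1:**
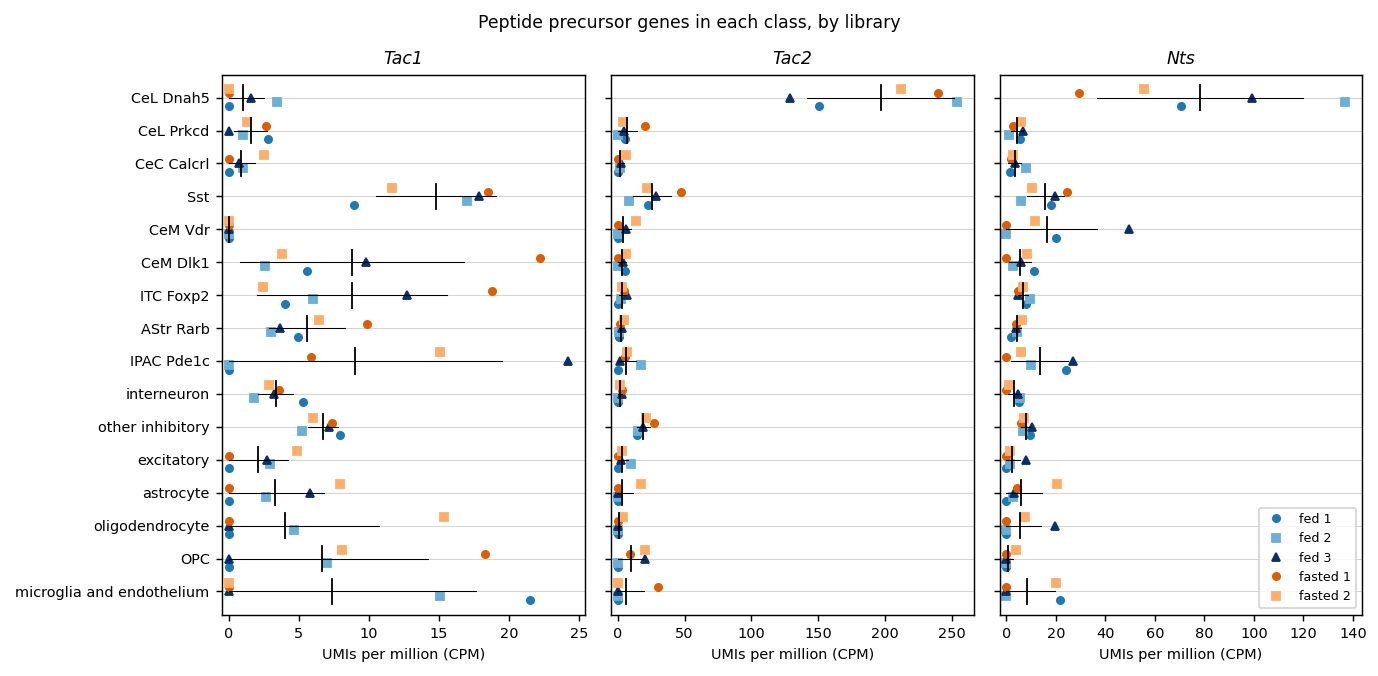
Level of Tac1, Tac2 and Nts (CPM, linear axis from 0) in 16 classes, with 1 point per library, a vertical bar at the mean and a horizontal bar for 1 SD over 5 libraries. The prefixes CeL, CeC, CeM, ITC, AStr and IPAC are the regions in which the study placed each marker. For the Dnah5 class, CeL is where the study placed Nts and Tac2, not the gate genes. Tac2 and Nts stand out in the Dnah5 class, with means of 196.7 and 78.2 CPM, and Tac1 is highest in the Sst class at 14.8 CPM.

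Nts, the neurotensin precursor gene, had its highest level in the same class. It was 70.4, 137.0 and 99.0 CPM in fed 1, 2 and 3 and 29.3 and 55.4 CPM in fasted 1 and 2 (mean 78.2 ± 41.4, n = 5). The next levels were 16.2 ± 20.5 CPM in the Vdr class, which rests on 16 UMIs, 15.7 ± 7.45 in the Sst class and 13.4 ± 11.6 in the Pde1c class. The lowest library of the Dnah5 class lay above every library of the Sst and Pde1c classes but below 1 library of the Vdr class, which had 49.6 CPM in fed 3. In the Dnah5 class Nts was 12.6-fold above the mean of the other classes (log2 fold 3.65, SE 0.25, edgeR adjusted p = 2.8e-18). As for Tac2, the gate genes were taken as marks of this population, so the fold and p are no independent test. Nts was lower in the Calcrl class (log2 fold -1.32), the Prkcd class (-0.90, SE 0.37, edgeR adjusted p = 0.0499), the Rarb class (-0.88) and interneurons (-1.55). The Sst class, with a log2 fold of 0.88 (SE 0.33), did not pass (edgeR adjusted p = 0.059). For each of these classes the comparison mean includes the Dnah5 class, so its high Nts level lowered their log2 folds. Of all genes tested, 13.8% were called higher in the Dnah5 class, against Tac2 and Nts of the 6 members tested.

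Of the Dnah5 class, 57.6% (48.6 to 66.2%) had an Nts UMI unthinned and 17.3 ± 14.1% over libraries had one after thinning. Thinned means in the 4 glial classes and excitatory nuclei were 0.74 to 5.82%. The share of inhibitory nuclei that fell in the Dnah5 class was 1.52 to 3.22% by library. It held 22.7% of the 1491 Tac2 UMIs and 18.8% of the 803 Nts UMIs of inhibitory nuclei, with 2.08% of the nuclei. Other inhibitory nuclei, which were 42.2% of the nuclei, held 45.5% of the Tac2 UMIs and 34.3% of the Nts UMIs, so most UMIs of both genes lay outside the Dnah5 class. The Nts level of other inhibitory nuclei, 8.02 ± 1.92 CPM, lay within the 0.809 to 8.28 CPM of the glial classes. Taken over all these nuclei it could not be told from background, though the highest glial mean rests on 3 UMIs. The 453 nuclei among them with a Dnah5 or Vipr2 UMI had 14.5 ± 4.54 CPM, above the glial means. The 1936 with neither had 6.42 ± 1.62 CPM, and their UMIs do not show that Nts was made there. This split was not tested.

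Tac1, the precursor gene of substance P, was low throughout. Its level in the Sst class was 8.92, 16.98 and 17.9 CPM in fed 1, 2 and 3 and 18.5 and 11.7 CPM in fasted 1 and 2 (14.8 ± 4.26, n = 5). The Pde1c class followed with 0, 0, 24.2, 5.83 and 15.1 CPM in the same order, and the Foxp2 and Dlk1 classes with 8.80 ± 6.81 and 8.78 ± 7.98 CPM. No neighbours in the order of Tac1 were apart beyond their spread. The test called Tac1 higher in the Sst class (log2 fold 2.04, SE 0.34, edgeR adjusted p = 4.0e-06), the Pde1c class (1.90, SE 0.39, edgeR adjusted p = 0.00012) and other inhibitory nuclei (0.69, SE 0.24, edgeR adjusted p = 0.025). It was lower in the Prkcd class (log2 fold -1.86) and the Calcrl class (-2.002). The Dnah5 class held 2 Tac1 UMIs in 118 nuclei, which came to 0.995 CPM. The glial classes, in which Tac1 is not known to be made, had 3.26 to 7.33 CPM from 2 to 8 UMIs each. Levels in that range could not be told from background, among them the 6.72 ± 1.10 CPM of other inhibitory nuclei that the test called higher.

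A second marker divided these classes further, and the resulting groups were described without a test. Among nuclei of the Sst gate, 186 had at least 2 UMIs of Ebf1 and 52 had none. Ebf1 was listed here as a check marker of the CeL form. The paper names it for a cluster of the medial CeA and reports it elsewhere too, so the split does not assign a region. Tac2 was 34.9 ± 22.0 CPM in the Ebf1 nuclei and rested on 1 UMI (1.06 ± 2.37 CPM) in those without. Tac1 was 12.1 ± 5.41 and 22.0 ± 25.4 CPM in the same order, which overlapped widely. Ntsr1 was 22.5 ± 6.96 CPM in Sst nuclei without Ebf1. Nuclei over both the Dnah5 and Sst gates, 48 in all, had Tac2 at 186.9 ± 114.2 CPM and Nts at 43.6 ± 28.7 CPM. The 34 nuclei over the Dnah5 and Prkcd gates had Tac2 at 141.2 ± 98.5 CPM and Nts at 91.0 ± 73.8 CPM. The peptide genes of the Dnah5 class were thus also present in nuclei with Sst or Prkcd UMIs, which the strict gates had kept apart. Among nuclei of the Rarb and Pde1c gates, those with Drd1 and without Drd2 UMIs had Tac1 at 17.6 ± 17.04 CPM (70 nuclei) and those with Drd2 and without Drd1 at 2.26 ± 2.20 CPM (559 nuclei). The 255 nuclei of these gates with neither receptor had 11.2 ± 6.76 CPM, with Tac1 UMIs in all 5 libraries, so Tac1 was not limited to nuclei with Drd1 UMIs. Median depth was about 16200, 11120 and 8054 UMIs in the same order, and in 1 of the 5 libraries the Drd1 nuclei held no Tac1 UMI.

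**Figure D2:**
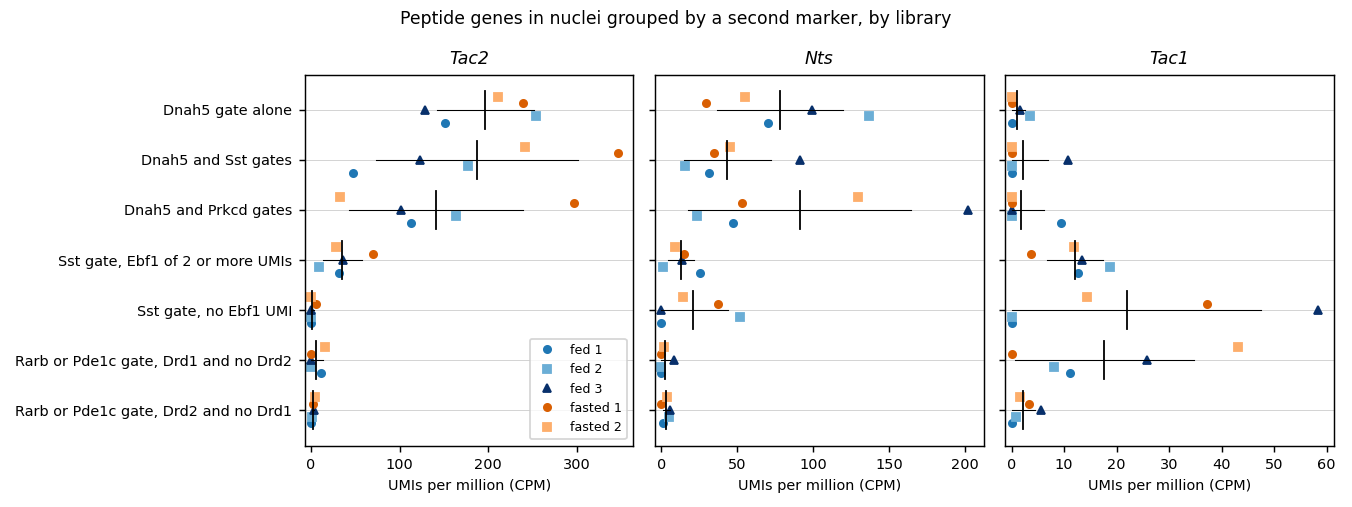
Level of Tac2, Nts and Tac1 (CPM, linear axis from 0) in nuclei grouped by a second marker, with 1 point per library, a vertical bar at the mean and a horizontal bar for 1 SD over 5 libraries. Tac2 stays above 100 CPM on average in all 3 groups of the Dnah5 gate, and among Sst nuclei it is present with Ebf1 and near 0 without.

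Tacr1, the gene of the substance P receptor, had its highest level in the Prkcd class, the CeL population best known for suppressing feeding. It was 283.1, 277.9 and 238.6 CPM in fed 1, 2 and 3 and 394.7 and 393.3 CPM in fasted 1 and 2 (317.5 ± 71.9, n = 5). The Calcrl class had 161.6 ± 38.8, the Dlk1 class 136.2 ± 48.8, interneurons 112.6 ± 69.7 and other inhibitory nuclei 87.0 ± 11.7 CPM. The lowest library of the Prkcd class was above the highest of the Calcrl class, while from the Calcrl class downward neighbours overlapped. Tacr1 was 5.90-fold above the mean of the other classes in the Prkcd class (log2 fold 2.56, SE 0.11, edgeR adjusted p = 2.0e-26). It was higher also in the Calcrl class (log2 fold 1.51, SE 0.13), the Dlk1 class (1.44, SE 0.16), interneurons (1.03, SE 0.17) and other inhibitory nuclei (0.50, SE 0.12), with edgeR adjusted p-values of 0.00085 or less. It was lower in the Dnah5 class (log2 fold -1.67, SE 0.31, edgeR adjusted p = 2.1e-05), the Rarb class (-1.89) and the Pde1c class (-3.40), whose mean was 5.996 CPM. Among Prkcd nuclei, 73.5% (69.0 to 77.6%) had a Tacr1 UMI at a median depth of 11690 UMIs, and in 6.01% of oligodendrocytes at 3075. After thinning, the share of Prkcd nuclei was 54.0 ± 5.28%, against means of 1.82 to 6.63% in the 4 glial classes and excitatory nuclei.

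Ntsr1, the gene of the high-affinity neurotensin receptor, was highest in the Prkcd class as well. It was 60.3, 71.8 and 81.1 CPM in fed 1, 2 and 3 and 48.2 and 60.6 CPM in fasted 1 and 2 (64.4 ± 12.5, n = 5). The Dlk1 class was close behind with 59.4 ± 17.9 CPM, and these classes did not differ beyond their spread. The Calcrl class followed with 33.2 ± 9.03 and other inhibitory nuclei with 23.6 ± 1.92 CPM. Microglia and endothelium lay between them at 26.5 ± 59.2 CPM, on 8 UMIs from 1 nucleus of fed 3. The other glial classes had 1.62 to 6.12 CPM. Against the mean of the other classes, Ntsr1 was 5.26-fold higher in the Prkcd class (log2 fold 2.39, SE 0.17, edgeR adjusted p = 1.1e-17), 4.01-fold in the Dlk1 class (2.00, SE 0.23, edgeR adjusted p = 8.7e-10) and 2.44-fold in the Calcrl class (1.28, SE 0.21, edgeR adjusted p = 1.9e-06). It was higher in other inhibitory nuclei by a log2 fold of 0.73 (SE 0.16) and lower in the Rarb class (-1.14), interneurons (-1.37) and the Pde1c class (-3.03). In the Dnah5 class it was not called (log2 fold -0.87, SE 0.46, edgeR adjusted p = 0.18), at 9.80 ± 6.91 CPM. After thinning, 23.7 ± 7.38% of Prkcd nuclei had an Ntsr1 UMI, against means of 0.74 to 4.0% in the 4 glial classes and excitatory nuclei. Tacr1 and Ntsr1 were the members called higher in the Prkcd, Calcrl and Dlk1 classes alike. Nuclei over both the Calcrl and Prkcd gates were placed in the Calcrl class. Prkcd itself was 341.6 CPM there, beside 600 CPM in the Prkcd class, with libraries summed, so the Calcrl class was not free of Prkcd. The share of all genes called higher was 19.2% in the Prkcd class, 14.7% in the Calcrl class and 7.28% in the Dlk1 class.

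**Figure D3:**
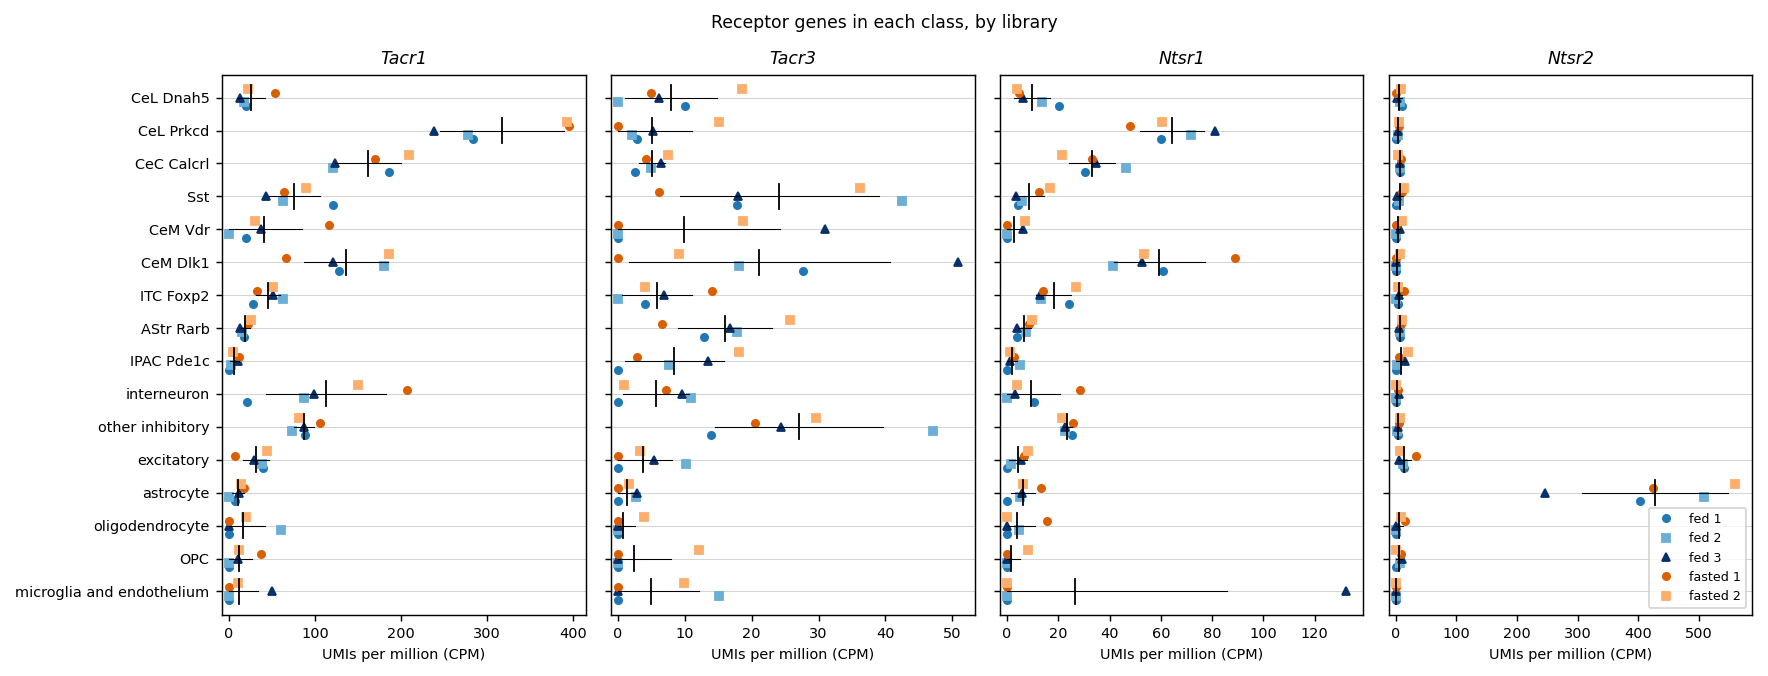
Level of Tacr1, Tacr3, Ntsr1 and Ntsr2 (CPM, linear axes from 0 that differ between panels) in 16 classes, with 1 point per library, a vertical bar at the mean and a horizontal bar for 1 SD over 5 libraries. Tacr1 and Ntsr1 peak in the Prkcd class (means of 317.5 and 64.4 CPM), Tacr3 in other inhibitory nuclei (27.1 CPM) and Ntsr2 in astrocytes (428.2 CPM).

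Tacr3, the gene of the neurokinin B receptor, had another distribution. It was 13.9, 47.1 and 24.3 CPM in fed 1, 2 and 3 and 20.5 and 29.7 CPM in fasted 1 and 2 in other inhibitory nuclei (27.1 ± 12.6, n = 5). The Sst class had 24.1 ± 14.9, the Dlk1 class 21.2 ± 19.5 and the Rarb class 15.9 ± 7.03 CPM, and none of these neighbours differed beyond their spread. The test called Tacr3 higher in other inhibitory nuclei (log2 fold 1.54, SE 0.20, edgeR adjusted p = 5.6e-09), the Sst class (1.47, SE 0.31, edgeR adjusted p = 0.00034) and the Rarb class (0.80, SE 0.28, edgeR adjusted p = 0.027). It was lower in the Foxp2 class (log2 fold -1.49, SE 0.54, edgeR adjusted p = 0.035). Other inhibitory nuclei held 65.3% of its 1527 UMIs in inhibitory nuclei, a larger part than their 42.2% of the nuclei. The Dnah5 class, where its ligand gene Tac2 peaked, held 16 Tacr3 UMIs (7.92 ± 6.91 CPM). The level of Tacr3 within other inhibitory nuclei was similar with and without Sst UMIs, at 30.0 ± 8.47 and 26.3 ± 14.4 CPM.

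Ntsr2, the gene of the low-affinity neurotensin receptor, was an astrocyte gene in these data. It was 402.4, 508.8 and 245.7 CPM in fed 1, 2 and 3 and 423.9 and 560.5 CPM in fasted 1 and 2 in astrocytes (428.2 ± 120.4, n = 5), against 14.0 ± 11.3 CPM in excitatory nuclei, the next class. All 5 libraries were higher in astrocytes than any was in another class. Against all inhibitory nuclei it was 94.0-fold higher (log2 fold 6.55, SE 0.22, edgeR adjusted p = 1.4e-20). It was not called in oligodendrocytes (log2 fold -0.22, SE 0.95) or oligodendrocyte precursors (OPC, -0.07, SE 0.97). Ntsr2 passed the filter on low counts of this fit although its level in inhibitory nuclei was only 4.64 ± 2.04 CPM, that is through astrocytes, whereas Tac2 and Nts did not pass it, so the fold and p describe a gene that was kept for its high class. With no filter the log2 fold was 6.33. Of 436 astrocytes, 73.2% (68.8 to 77.1%) had an Ntsr2 UMI at a median depth of only 3815 UMIs, against 5.89% of inhibitory nuclei. Of the 73 nuclei of microglia and endothelium, 0 had one, which allows a share of nuclei with a UMI of up to 5.00% by the Wilson interval. At a median depth of 4260 UMIs this limits detection and not expression. Tacr1, the other member that passed the filter on low counts in this fit, was lower than in inhibitory nuclei in all 3 glial classes tested, by a log2 fold of -3.23 in astrocytes, -1.98 in oligodendrocytes and -2.97 in OPC. Of all gene and class pairs in this fit, 27.6% were called lower, and the share of genes called higher was 31.9% in astrocytes, 26.3% in oligodendrocytes and 22.7% in OPC. Ntsr2 overlaps the 5′ end of Lpin1 on the other strand, and whether strand was used in counting is not given in the sources used here.

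Over the 10 inhibitory classes, 6 members passed the filter on low counts and Ntsr2 did not. Of their 60 pairs of gene and class, 19 were called higher and 16 lower, with 25 not called. The median log2 fold of the 60 pairs was -0.22, beside 0.00 over all genes. Among all genes and classes, 13.8% of pairs were called higher and 11% lower. Other inhibitory nuclei had 5 members higher (Tac2, Tacr1, Tacr3, Ntsr1 and, at a level within the glial range, Tac1, with 15% of all genes higher) and the Sst class 3 (Tac1, Tac2 and Tacr3, with 9.07%). The Pde1c class had Tac1 higher (12.7% of all genes), the Rarb class Tacr3 (13.4%) and interneurons Tacr1 (19.1%). The Foxp2 class had none, beside 13.3% of all genes. The peptide genes Tac2 and Nts and the receptor genes Tacr1 and Ntsr1 had opposite signs in the Dnah5 and Prkcd classes, though not every pair passed the test. Each of these classes is part of the mean with which the other was compared, and the Dnah5 gate favoured Tac2 and Nts. Opposite signs thus followed in part from the design and are no separate result.

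**Figure D4:**
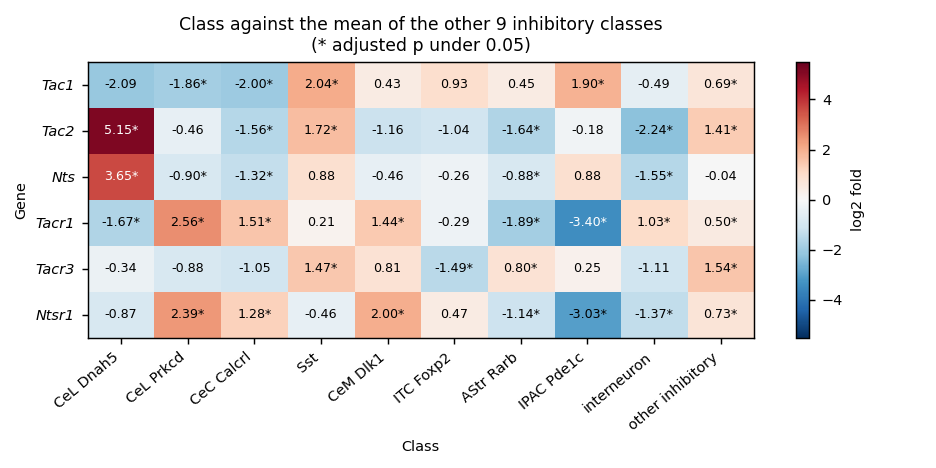
Log2 fold of each class (columns) against the mean of the other 9 inhibitory classes for the 6 members tested (rows), with lower values in blue and higher ones in red, with an asterisk where the adjusted p of edgeR was under 0.05. Tac2 and Nts are red in the Dnah5 column (5.15 and 3.65), and Tacr1 and Ntsr1 in the Prkcd, Calcrl and Dlk1 columns.

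Whether members lay in the same nuclei was described by the share of nuclei with UMIs of both, beside the product of the single shares in the same library. In the Dnah5 class, Tac2 and Nts were found together in 54 of 118 nuclei. The share was 49.0 ± 28.7% by library and the product 47.7%, and after thinning they were 9.49 ± 13.0% and 8.65%. Tac2 and Nts were thus together about as often as their single shares give. In the Prkcd class, Tacr1 and Ntsr1 were together in 137 of 400 nuclei, or 36.3 ± 14.0% against a product of 33.9%, and in 13.9 ± 3.93% against 12.8% after thinning. In other inhibitory nuclei they were together in 3.03 ± 0.50% after thinning, where the product was 1.53 ± 0.28%, and all 5 libraries lay above it. Other inhibitory nuclei passed no gate and are not a single class. The receptor genes Tacr1 and Tacr3 were together in 1.02 ± 0.67% of the same nuclei, with a product of 1.36%. Tac1 and Tac2 shared 1 nucleus of the Sst class.

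Fasting was tested by comparing 2 fasted with 3 fed libraries in each class with edgeR's quasi-likelihood test and no batch term. None of the 37 pairs of member and class passed: 0 were called over 14 fits, beside 0.0619% of all gene and class pairs. At an unadjusted p below 0.05 there were 10 member pairs, 7 higher and 3 lower in fasted libraries, where 5.08% of all pairs lay below it. These pairs are not separate observations, since all inhibitory nuclei include the classes. DESeq2 called 0 and edgeR's likelihood ratio test 2. The paper pairs fed and fasted libraries by preparation batch, numbered 1 and 2, with 1 fed library alone. Its numbers were taken to be the replicate numbers of the labels, with fed 3 alone, which the sources do not state. With this replicate block, in which fed 3 no longer adds to the fasting effect, 6 member pairs were called, 5 higher and 1 lower, and 1.39% of all pairs were called. The share of genes called was 3.56% in all inhibitory and 3.29% in other inhibitory nuclei, where Tac2 and Ntsr2 were called. It was 1.34% in the Dnah5 class and 0.138% in interneurons. The values of the 6 member pairs follow with both fits. Signs of RNA quality separated the feeding states without overlap, and their part in each of the changes below was not tested. The median mitochondrial share of kept nuclei was 0.136, 0.0788 and 0.0529% in fed 1, 2 and 3 and 0.317 and 0.237% in fasted 1 and 2. The barcodes numbered 1694 to 4657 in fed and 7291 and 7850 in fasted libraries, and kept nuclei held 56.4 to 90.1% of all UMIs in fed and 40.1 and 55.9% in fasted libraries.

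Nts fell with fasting in the Dnah5 class in the fit with the block. Within replicate 1 it was 70.4 CPM fed and 29.3 fasted, within replicate 2 it was 137.0 fed and 55.4 fasted, and fed 3 had 99.0. Both fasted libraries lay below all fed ones, on 6 and 27 UMIs. The log2 fold without the block was -1.18 (SE 0.38, approximate 95% interval -1.92 to -0.44, edgeR adjusted p = 0.28). With the block it was -1.33 (SE 0.39, edgeR adjusted p = 0.043). Intervals of log2 folds here and below are normal approximations from the SE, narrower than the quasi-likelihood test would give. Whether the change differed from that in other classes was tested with an interaction term, a test added after the data were seen. The difference was -1.36 (SE 0.72, edgeR adjusted p = 0.93) from the Sst class and -0.75 (SE 0.47, edgeR adjusted p = 0.94) from other inhibitory nuclei, so no difference was shown. Tac2 in the same nuclei had a log2 fold of 0.33 (SE 0.30, interval -0.26 to 0.92, edgeR adjusted p = 0.91). Its levels in fed and fasted libraries overlapped. In nuclei over both the Dnah5 and Sst gates Nts was 31.2, 15.4 and 91.2 CPM fed and 34.6 and 45.4 CPM fasted, so the groups overlapped there. In those over the Dnah5 and Prkcd gates it was 47.05, 23.36 and 202.2 CPM fed and 53.19 and 129.4 CPM fasted. These rest on 1 to 18 UMIs per library and overlapped too.

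Tac2 was higher in fasted libraries over all inhibitory nuclei in the fit with the block, in libraries that also differed in mitochondrial share and barcode number. It was 13.4, 15.4 and 16.3 CPM in fed 1, 2 and 3 and 27.6 and 19.9 CPM in fasted 1 and 2, without overlap. The log2 fold was 0.62 (SE 0.19, edgeR adjusted p = 0.62) without the block and 0.63 (SE 0.14, edgeR adjusted p = 0.0016) with it. In other inhibitory nuclei it was 14.6, 14.9 and 18.8 CPM fed and 26.8 and 21.3 CPM fasted (log2 fold 0.53, edgeR adjusted p = 0.81, and 0.63, edgeR adjusted p = 0.022, with the block). Of these, the 453 nuclei with a Dnah5 or Vipr2 UMI had 14.03, 12.67 and 15.98 CPM fed and 65.87 and 16.78 CPM fasted. The 1936 nuclei with neither had 14.79, 15.46 and 19.41 CPM fed and 19.04 and 22.68 CPM fasted. Fed and fasted libraries thus overlapped in nuclei with neither gene, and the split was not tested. The Dnah5 class made up 2.08, 1.62 and 3.22% of inhibitory nuclei in the fed libraries and 1.88 and 1.52% in the fasted ones, and these ranges overlapped. Passing a gate depends on depth, and the part of class shares in the change of Tac2 was not tested.

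Ntsr2 was low in inhibitory nuclei, and in the fit with the block it was higher in fasted libraries. OPC had 5.29 and oligodendrocytes 4.68 CPM, on 3 UMIs each, and microglia and endothelium 0. The mean of 4.64 CPM over all inhibitory nuclei thus could not be told from background. By library Ntsr2 was 3.12, 2.65 and 3.85 CPM in fed 1, 2 and 3 and 6.41 and 7.19 CPM in fasted 1 and 2, without overlap. The log2 fold was 1.06 (SE 0.23, edgeR adjusted p = 0.34), and 1.25 (SE 0.26, edgeR adjusted p = 0.00031) with the block. In other inhibitory nuclei it was 1.34 (edgeR adjusted p = 0.44), and 1.55 (edgeR adjusted p = 0.0073) with the block. The summed level of 4 astrocyte check genes, none of them at 0, in all inhibitory nuclei was 346.5 to 536.9 CPM in fed and 442.1 to 446.7 CPM in fasted libraries, and in other inhibitory nuclei 424.0 to 1011 CPM and 585.5 to 676.3 CPM. These ranges of the fasted libraries lay inside those of the fed ones. The sum of 4 oligodendrocyte check genes was 111.2 and 83.3 CPM in fed 1 and fed 2 and 138.7 and 111.8 CPM in fasted 1 and fasted 2 in all inhibitory nuclei, with 116.4 CPM in fed 3. In other inhibitory nuclei it was 63.2 to 99.3 CPM fed and 96.6 to 115.5 CPM fasted, and in astrocytes 36.7 to 69.4 CPM fed and 92.7 to 112.4 CPM fasted, without overlap. The part of RNA from other cells in the change of Ntsr2 was not tested. In astrocytes themselves Ntsr2 had a log2 fold of 0.35 (SE 0.31, interval -0.25 to 0.94, edgeR adjusted p = 0.98).

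Tacr1 was higher in both fasted libraries than in any fed one in the Prkcd class, with the values given above. The log2 fold was 0.56 (SE 0.16, interval 0.24 to 0.88), and it passed neither without the block (edgeR adjusted p = 0.21) nor with it (edgeR adjusted p = 0.12). In interneurons Tacr1 was 21.0, 87.0 and 98.7 CPM in fed 1, 2 and 3 and 206.6 and 149.8 CPM in fasted 1 and 2. The log2 fold there was 1.15 (SE 0.33, edgeR adjusted p = 1.00), and 1.37 (SE 0.31, edgeR adjusted p = 0.035) with the block. With the gate UMIs doubled, the interneuron value was -0.070, so its direction changed with the gate. Over all inhibitory nuclei the Tacr1 log2 fold was 0.23 (SE 0.12, interval 0.00 to 0.46).

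Ntsr1 had a log2 fold of -0.05 over all inhibitory nuclei (SE 0.14, interval -0.32 to 0.22) and of -0.39 in the Prkcd class (SE 0.23, interval -0.84 to 0.07). Tacr3 had -0.13 over all inhibitory nuclei (SE 0.36, interval -0.83 to 0.58). In the Dlk1 class Tacr3 was 27.7, 18.1 and 50.8 CPM fed and 0 and 9.14 CPM fasted, a log2 fold of -1.93 (SE 0.61) with an edgeR adjusted p of 0.58. Fasted 1 held only 11 nuclei of that class. Tac1 had 0.20 over all inhibitory nuclei (SE 0.22, interval -0.24 to 0.64). The intervals of Tac1, Tacr3 and Ntsr1 over all inhibitory nuclei included 0. Over the 37 member pairs the median log2 fold was 0.18, beside -0.01 over all genes.

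**Figure D5:**
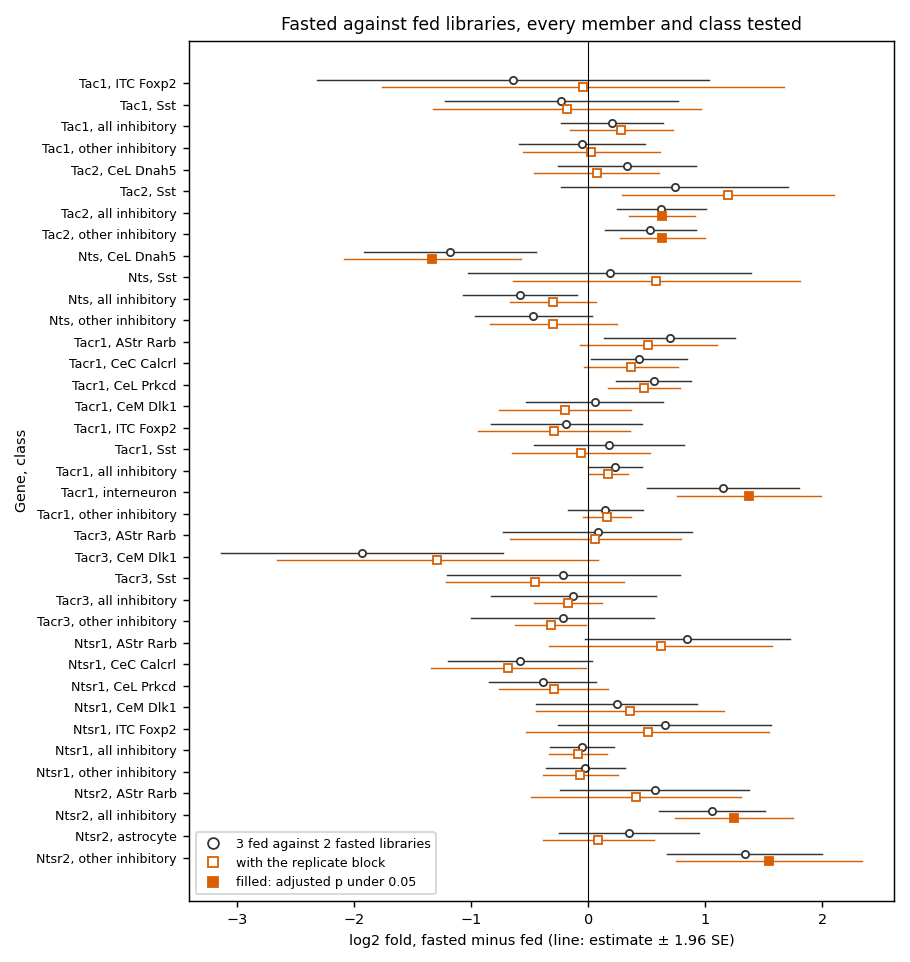
Log2 fold of fasted against fed libraries for each of the 37 pairs of member and class. Circles are without the replicate block and squares with it. Lines are the approximate 95% interval, a normal approximation from the SE. Open symbols did not pass an adjusted p of 0.05, and the 6 filled squares are Nts in the Dnah5 class, Tac2 and Ntsr2 in all and in other inhibitory nuclei, and Tacr1 in interneurons.

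Further genes of both systems came from a list of 31 that make, sort, degrade or transmit these peptides. Tac4, a tachykinin gene of blood cells, and Tacr2, the neurokinin A receptor gene, had 2 UMIs each in inhibitory nuclei. For each role 1 gene is named by its CPM, which is not corrected for gene span and ranks no gene above another, with the class in which it was highest. These were Plcb1, a phospholipase downstream of Gq, in the Pde1c class (3869 ± 236 CPM), Cpe, which trims basic residues off peptides, in astrocytes (2717 ± 302), and Grk3, a receptor kinase, in astrocytes (714.0 ± 107.5). Sort1, which encodes the sorting receptor that binds neurotensin, was highest in oligodendrocytes (262 ± 125 CPM), and Nln, the gene of neurolysin, which cleaves neurotensin, in astrocytes (107 ± 23.2 CPM). Among the 27 genes of this list tested in the inhibitory classes, 63 of 270 pairs were called higher and 51 lower, with a median log2 fold of 0.00, beside 13.8% higher and 11% lower over all genes and classes. In the glial fit, 12 of 54 pairs of 18 genes were higher and 21 lower, beside 27% and 27.6% over all genes, so the share called higher was below that of all genes. Sort1 was higher than in inhibitory nuclei in both oligodendrocytes and astrocytes, and Nln in astrocytes.

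Between fasted and fed libraries, 1 of 311 pairs of these other genes was called, beside 0.0619% of all gene and class pairs. That pair was in OPC, where 0.42% of all genes were called. Pcsk1n, which encodes an inhibitor of the prohormone convertase of Pcsk1, was 29.4, 34.9 and 31.0 CPM in fed 1, 2 and 3 and 210.3 and 153.7 CPM in fasted 1 and 2 in OPC (log2 fold 2.43, SE 0.48, edgeR adjusted p = 0.017). Its fitted value was higher in fasted libraries in all 13 classes tested, from 0.34 to 2.50, and in 10 of these the unadjusted p was below 0.05. Mitochondrial share and barcode number moved with the same libraries, as given above. With the replicate block 7 of 311 pairs were called, beside 1.39% of all gene and class pairs. Pcsk1n was called in all and other inhibitory nuclei, astrocytes and OPC. Pcsk2, a prohormone convertase gene, was called in all and other inhibitory nuclei. Itpr1, a calcium channel gene downstream of Gq, was called in the Prkcd class. All 7 were higher in fasted libraries. The classes come from the same 5 libraries, so these are not separate observations.

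The genes whose levels over the 16 classes were most like each member were found by Pearson correlation of log2(CPM + 1) class means among 12407 genes, as a description. For Tac2 these were Cd44 (r = 0.82), Egf, Arl4a, Slc18a2 and Slc26a10, all of which were highest in the Dnah5 class. For Nts they were Nrp1 (r = 0.78), Gnas, Irak3, Cux1 and Pfkfb3. For Tacr1 they were Wdr6 (r = 0.88), Trpc4, Twist2, Cmip and Scarb1, and for Ntsr1 Hdac9 (r = 0.93), Atp2c2, Kdr, Meaf6 and Ipmk, all highest in the Prkcd class. Genes most like Tacr3 included Asb18 (r = 0.87), Cdr1, Cenpv and Cltb, and Ntsr2 was most like Gfap (r = 0.92), Elmod3, Cpe, Acat3 and Acsbg1, all 5 highest in astrocytes. For Tac1 they were Alg2 (r = 0.76), Gm3055, Bclaf3, Zbtb48 and Usp21, which were highest in glial classes or interneurons and not in the Sst class.

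In fed 3, whose virus makes mCherry in cells with Cre, 414 inhibitory nuclei had an mCherry UMI and 827 had none, a share of 33.4% (Wilson interval 30.8 to 36.0%) at a median depth of about 14500 UMIs. Of 115 glial nuclei 7.83% (4.17 to 14.2%) had one at 4454 UMIs, so a UMI does not by itself show that a nucleus made mCherry. Among 19 excitatory nuclei 7 had one. Nuclei with mCherry held a mean of 8.14 mCherry UMIs among excitatory, 7.355 among inhibitory and 2.89 among glial nuclei. The other 4 libraries held 0 mCherry UMIs. With 1 library there is no test, and the exact Poisson intervals that follow cover counting error only. Tac2 was 21.8 CPM (18.6 to 25.5) in nuclei with mCherry and 13.1 (11.2 to 15.3) in those without. Tacr3 was 22.7 CPM (19.3 to 26.4) against 13.2 (11.3 to 15.4). The receptor genes of the Prkcd class were lower with mCherry, Tacr1 at 73.1 CPM (67.0 to 79.7) against 90.7 (85.5 to 96.1) and Ntsr1 at 17.7 (14.7 to 21.0) against 25.3 (22.6 to 28.2). Nts was 15.7 CPM (12.9 to 18.9) against 13.9 (11.9 to 16.1), and the intervals overlapped. The share with an mCherry UMI ran from 18.5% in the Foxp2 class to 45.0% in the Sst class and 72.7% of 11 Vdr nuclei, with 32.5% in the Dnah5 class, 27.6% in the Prkcd class and 38.7% of other inhibitory nuclei.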

How the data were processed

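Nuclei were counted in 5 droplet libraries (10x Chromium, 3′ chemistry). The deposited values are raw UMI counts per gene and barcode, which the authors made with Cell Ranger on GRCm39 with Cre and mCherry added and introns included. The submitters' processing notes list Cell Ranger 2.1.1 and mm10, which differs from the study's methods. No column was left out, and ambient RNA was not removed. Members, gene lists and classes were chosen with earlier results of these data known, and the minimum gate UMIs were set on the gate genes without the members. All 7 members are named, and of other pathway genes those called between fasted and fed and the highest of each role. For each member the 5 genes with the most similar pattern are also named, except 1 gene that is not reported here.

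Gates needed 2 or 3 UMIs and a minimum rate per 10000 UMIs. Calcrl nested over Prkcd, Pde1c over Rarb and interneurons over Sst, and 608 inhibitory nuclei over several gates were kept apart. Scrublet in scanpy 1.11.5 called 70 doublets, which were kept. Sums of classes with at least 10 nuclei in each library were tested with edgeR 4.0.16 (TMM, filterByExpr, quasi-likelihood, R 4.3.3), with adjusted p under 0.05 called. Tests were checked on simulated counts. The paper pairs fed and fasted libraries by preparation batch, and its numbers were assumed to be the replicate numbers of the labels. The deviations of fed 1 and fasted 1 from their means (fed 1 and 2, fasted 1 and 2) correlated at 0.50 over 13308 genes. The other pairing gives -0.50 by construction. Fed 1 and fasted 1 were also the shallow libraries (medians of 8326 and 6608 UMIs, against 14886 and 16367). The correlation therefore cannot tell batch from depth. Alternatives were DESeq2 1.42.0, the likelihood ratio test and others given in the closing section.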

Additional observations from a re-analysis of the deposited data

How the results depend on the processing

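The number of member and class pairs called higher, 19 with the settings reported, was 18 to 21 when 1 library was left out. It was 11 with gates set on nuclei thinned to 4000 UMIs and 12 with doubled gate UMIs, where the Dnah5, Sst and Dlk1 classes fell below 10 nuclei in a library and only 28 pairs were tested. Of the single values, 222 kept direction and call and 7 kept direction only, which were Tacr3 in the Rarb class (4 settings, among them DESeq2, log2 fold 0.76, adjusted p = 0.16) and Tac1 in other inhibitory nuclei (3 settings, among them DESeq2, 0.72, adjusted p = 0.055). Tacr3 in the Rarb class was not called without fed replicate 1 (adjusted p = 0.071) or fasted replicate 2 (0.10), and neither was Tac1 in other inhibitory nuclei (0.10 and 0.063). Ntsr2 stayed the 1 member higher in a glial class in each fit, 1 to 1 with a library left out, and gates on thinned nuclei left no glial class to test. A Dnah5 gate nested over Prkcd and Sst, chosen after seeing the data, changed none of the 19 calls.

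Between fasted and fed libraries 0 member pairs were called, 0 to 0 with a library left out, 2 with the likelihood ratio test, 2 with no filter on low counts and 6 with the replicate block, which changed no other call of a member. Over all genes the pairs called were 65 with the settings reported, 196 with DESeq2, 639 with the likelihood ratio test, 881 with no filter and 1460 with the block. The value that reversed was Tacr1 in interneurons, at -0.070 with doubled gate UMIs. The cause was not tested. In these fits fasted replicates rest on 2 libraries, and without 1 of them the lone library is assumed to vary like the fed ones.

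Shares of nuclei moved with depth. With thinning to 2000 UMIs, the share was 28.8% for Tac2 in the Dnah5 class, 2.23% for Tac1 in the Sst class, and 40.7% for Tacr1 and 14.4% for Ntsr1 in the Prkcd class. Unthinned they were 78.6%, 9.47%, 74.0% and 45.0%, with 58.1% for Nts in the Dnah5 class and 15.6% for Tacr3 in other inhibitory nuclei. Unthinned co-detection was 49.0% for Tac2 with Nts in the Dnah5 class, and for Tacr1 with Ntsr1 36.3% in the Prkcd class and 10.7% in other inhibitory nuclei. With 2 fasted libraries of pooled mice, low counts of Tac1, Nts and Ntsr2 limit what could be detected.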
